A study of Mus musculus with 13 samples.

Results

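The expression of 10 genes of the oligodendrocyte lineage was followed across midbrain RNA-Seq libraries of 13 mice, out of 49315 genes counted in each library. They were chosen by name, as markers of 2 stages that precede the myelinating oligodendrocyte. Pdgfra, Cspg4, Sox6, Tnr, Vcan and Ptprz1 (6 genes) mark the oligodendrocyte precursor cell, or OPC, and Gpr17, Neu4, Enpp6 and Bmp4 (4 genes) mark the committed precursor that has begun to differentiate. All 10 were above the minimum of 10 counts in at least 3 libraries, as were 19360 genes in all. In Cre- mice given MPTP, Gpr17 was the member that fell past the threshold, a call that was lost without any 1 of 9 libraries. Enpp6, Bmp4 and Cspg4 also lay below every Saline library without passing it. Over all genes, 3.18% passed and 15.1% did not overlap between the groups. For Pdgfra, Sox6, Tnr, Vcan and Ptprz1 the 95% intervals of the change included 0. With 1 divergent library left out, Enpp6 and Bmp4 also passed as lower and Pdgfra as higher. That fit held 2 Cre- MPTP mice and called 9.38% of all genes.

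OPCs persist throughout the adult brain, where they divide slowly in response to platelet-derived growth factor, and some of them leave the cell cycle and differentiate. A committed precursor turns off Pdgfra and Cspg4, passes through a short stage marked by Gpr17, and then expresses Enpp6 and the first myelin genes before it matures into a myelinating cell. Because the committed stage is brief, its genes are used as a measure of ongoing differentiation, while the OPC genes follow the standing pool of precursors.

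The series compared Ripk3fl/fl mice without (Cre-) and with (Cre+) an Aldh1l1-driven, tamoxifen-inducible Cre, which deletes the kinase gene Ripk3 from astrocytes. All mice were males of 8 to 12 weeks, on a C57BL/6J background, and both genotypes received tamoxifen at 60 mg/kg on 5 days. They were then injected with MPTP, a toxin of dopaminergic neurons, at 20 mg/kg once a day for 5 days, or with Saline, and midbrains were taken 3 days after the last dose. Each library was 1 mouse, with 3 mice in each of the Cre- Saline, Cre+ Saline and Cre- MPTP groups and 4 in Cre+ MPTP. RNA came from whole midbrain tissue, so fewer cells of a type and less RNA per cell cannot be told apart. Cspg4 is also made by pericytes, Pdgfra and Vcan by fibroblasts, and Ptprz1 by astrocytes. Sources of the other members outside the lineage were not examined. The samples hold only males.

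The libraries held 11489150 to 29397278 counts. One library, Cre- MPTP replicate 1, stood apart. It had the smallest total, and 21101 genes had a count in it, against 25432 to 27186 in the other 12. Compared with replicates 2 and 3 of its group, its genes with an exon length of 12000 bases or more were lower, with a median log2 difference of -1.01 over 729 genes. Genes of 2000 to 4000 bases had a median of 0.05, and those under 1000 bases were also lower, at -0.34 over 1775 genes. The library's log2 differences from replicates 2 and 3 were -1.31 for Pdgfra, -1.60 for Gpr17, -2.26 for Enpp6 and -2.08 for Tnr. They were -0.19 for Cspg4, whose exon length is 11931 bases, and 0.82 for Bmp4. The members' results that use this library are therefore also given without it. Muscle genes summed to 7137 CPM in Cre+ MPTP replicate 4, against 28.5 to 181 CPM in the other libraries (CPM are counts scaled to a common library size), and pituitary genes to 615 and 451 CPM in Cre+ Saline replicates 1 and 3, against 9.61 to 84.1. Ripk3 itself had 4 to 19 counts in the Cre+ libraries and 4 to 40 in the Cre- libraries, too few to check the deletion in whole tissue. None of 8 genes of dopaminergic neurons, which mark the midbrain, was at 0 in any library.

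Per kilobase of exon in Cre- Saline libraries, the level of Ptprz1, a receptor-type tyrosine phosphatase, was highest at 19.3 ± 1.95 CPM per kb (SD, n = 3). Tnr, which encodes the matrix glycoprotein tenascin-R, had 9.60 ± 3.78, Gpr17, a G protein-coupled receptor, 8.76 ± 3.53, and Pdgfra, the receptor for platelet-derived growth factor AA, 5.50 ± 0.833 CPM per kb (SD, n = 3). The ranges of Tnr, Gpr17 and Pdgfra overlapped, and Ptprz1 lay above them. The other 6 genes, below Pdgfra in every Cre- Saline library and overlapping in part with each other, had means of 1.33 CPM per kb for Vcan to 2.99 CPM per kb for Neu4. Across all 13 libraries Enpp6 varied most, 16.2-fold from lowest to highest, followed by Gpr17 at 11.2-fold, and Cspg4 varied least at 1.95-fold. The lowest library was Cre- MPTP replicate 1 for 9 of the 10 genes and Cre- MPTP replicate 3 for Bmp4.

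In GRCm38 (GENCODE M21) Pdgfra lies on chromosome 5 from 75152292 to 75198215, Enpp6 on chromosome 8 from 46986887 to 47096762 and Bmp4 on chromosome 14 from 46383520 to 46390669. RefSeq promoter sequence (GRCm38.p6) was matched for 9 of the 10 genes. The 250 bases before the RefSeq start of Pdgfra (chr5:75152001-75152250, + strand), Enpp6 (chr8:46986637-46986886, + strand) and Bmp4 (chr14:46390670-46390919, - strand) are shown, as those of a precursor gene and of 2 committed precursor genes. Capitals mark the letters CANNTG, the E-box read by basic helix-loop-helix factors such as OLIG2, searched on both strands.
Pdgfra: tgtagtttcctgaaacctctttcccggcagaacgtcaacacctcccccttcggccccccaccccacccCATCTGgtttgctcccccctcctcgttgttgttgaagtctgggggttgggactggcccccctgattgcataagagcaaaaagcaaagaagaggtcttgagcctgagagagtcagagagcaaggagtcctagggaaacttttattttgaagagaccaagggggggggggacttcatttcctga
Enpp6: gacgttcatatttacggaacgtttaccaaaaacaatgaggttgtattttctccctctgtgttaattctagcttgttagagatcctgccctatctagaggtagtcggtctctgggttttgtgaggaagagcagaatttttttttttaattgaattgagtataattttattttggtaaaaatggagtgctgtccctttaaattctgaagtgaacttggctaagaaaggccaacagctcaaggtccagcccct
Bmp4: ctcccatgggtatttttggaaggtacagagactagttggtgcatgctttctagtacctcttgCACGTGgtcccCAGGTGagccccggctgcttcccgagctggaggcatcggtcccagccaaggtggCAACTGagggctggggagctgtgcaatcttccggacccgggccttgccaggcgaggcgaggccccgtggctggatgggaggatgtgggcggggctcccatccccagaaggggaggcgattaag
Bmp4 held 3 such matches, Pdgfra 1 and Enpp6 0, while 66.2% of all 32851 promoter windows of 250 bases held at least 1. The letters ACAAAG or CTTTGT, bound by SOX proteins, were in none of the 3 windows shown and in 16.5% of all windows. The GC content of the windows was 54.4% for Pdgfra, 38.4% for Enpp6 and 63.2% for Bmp4. These matches are a description of the letters.

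**Figure D1:**
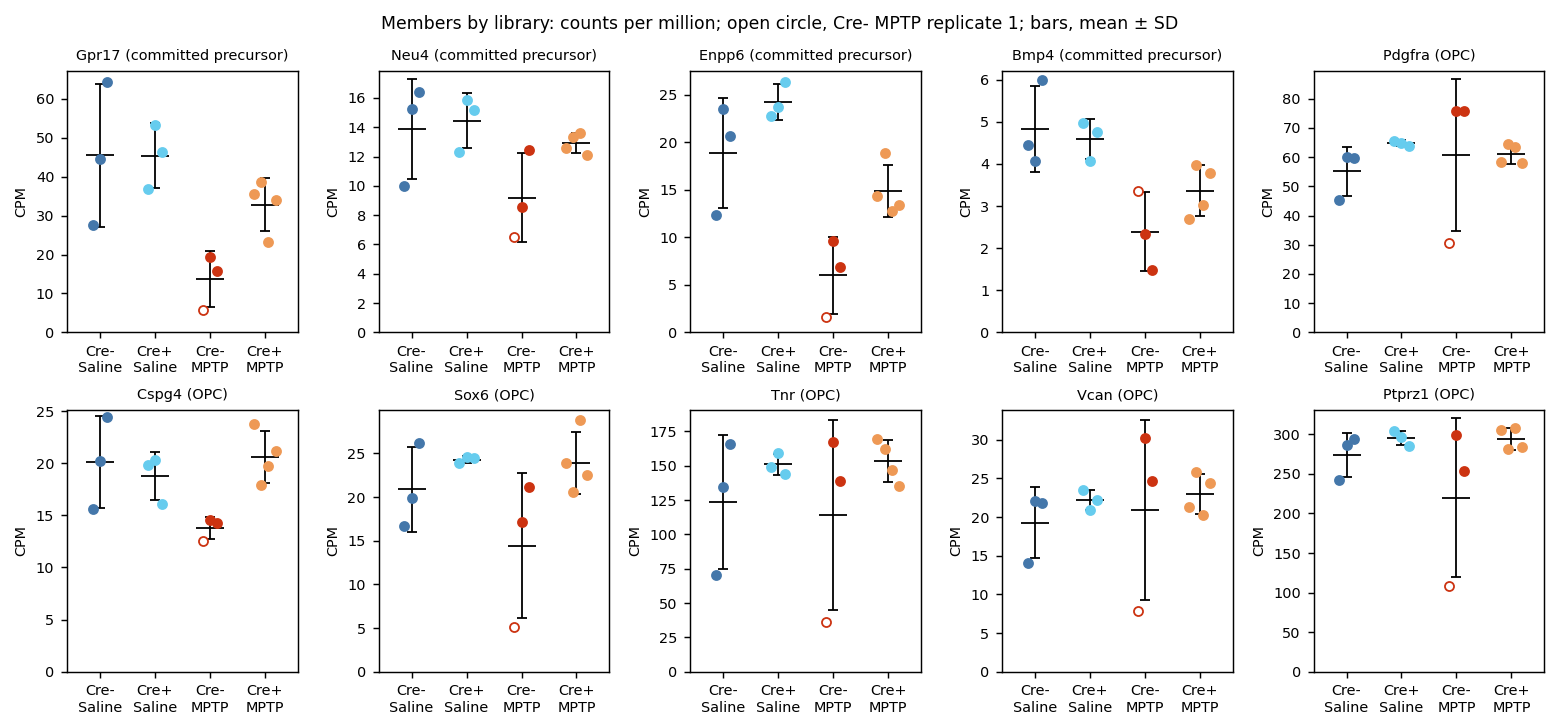
CPM (vertical axis from 0) of the 10 genes in each library, by group; the open circle is Cre- MPTP replicate 1, and bars are the mean ± SD of 3 or 4 mice. Gpr17 and Enpp6 are lowest in the 3 Cre- MPTP libraries, while Pdgfra is at 75.8 CPM in 2 of them and at 30.6 CPM in the open circle.

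The first comparison asked how MPTP changed the midbrain of Cre- mice, which keep Ripk3 in astrocytes. Of the committed precursor genes, all 4 had negative log2 fold changes (as did 47.6% of all genes), with a median of -1.33 against 0.03 over all genes tested, and 1 of the 4 passed the test. By the edgeR quasi-likelihood test, with Benjamini-Hochberg adjusted p over all genes, 1 of the 10 members (Gpr17) had an adjusted p under 0.05, where 3.18% of all genes did. CPM did not overlap between the groups for 4 of the 10 members, all lower with MPTP (Gpr17, Enpp6, Bmp4 and Cspg4), against 15.1% of all genes in either direction. Median log2 fold change was -0.21 over the 6 OPC genes, of which 0 were called and 1 (Cspg4) had an unadjusted p under 0.05, as had all 4 committed precursor genes and 15% of all genes.

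Gpr17, whose receptor marks the committed precursor and is lost as the cell matures, had 27.7, 44.4 and 64.3 CPM in Cre- Saline replicates 1 to 3 and 5.74, 19.5 and 15.9 CPM in Cre- MPTP replicates 1 to 3. Every MPTP library was below every Saline library, with means of 13.7 ± 7.12 and 45.5 ± 18.3 CPM (SD, n = 3). It fell by 1.71 on the log2 scale (edgeR adjusted p = 0.0347, SE 0.397), a 3.28-fold lower level. Without Cre- MPTP replicate 1 the log2 fold change was -1.36 (edgeR adjusted p = 0.0118, SE 0.299). The call was close to the threshold: it was lost without any 1 of Cre- Saline replicates 2 or 3, Cre- MPTP replicate 3, the 3 Cre+ Saline libraries or Cre+ MPTP replicates 1, 2 or 4, with edgeR adjusted p from 0.0505 to 0.161 and log2 fold changes from -1.82 to -1.37. In GRCm38, Gpr17 lies on chromosome 18 from 31942997 to 31949636. It shares 188 exon bases, 3.62% of its exons, with Lims2 on the opposite strand. Lims2 had 3660 counts in all libraries together, Gpr17 had 11148, and whether the counting used strand is not given in the sources used here, so some counts of Gpr17 are uncertain.

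Enpp6, a choline-specific glycerophosphodiesterase of newly forming oligodendrocytes, had 12.3, 23.5 and 20.7 CPM in Cre- Saline libraries and 1.63, 9.59 and 6.87 CPM in Cre- MPTP libraries. The groups did not overlap, and replicate 1, with 15 counts (exact 95% Poisson interval 8.4 to 24.7, counting error only), was the lowest. The log2 fold change of Enpp6 was -1.60 (edgeR adjusted p = 0.0766, SE 0.434), which did not pass the threshold. Without Cre- MPTP replicate 1 it was -1.19 and passed (edgeR adjusted p = 0.00847, SE 0.248), and without Cre- MPTP replicate 2 it was -2.05 and passed (edgeR adjusted p = 0.0304), in a fit that called 3.87% of all genes.

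Bmp4, a secreted ligand of the bone morphogenetic protein family, is made by committed precursors. It had 4.45, 4.06 and 5.99 CPM in Cre- Saline libraries and 3.36, 2.34 and 1.49 CPM in Cre- MPTP libraries. Again no MPTP library reached the lowest Saline library, but here replicate 1 was the highest of its group. The log2 fold change was -1.05 (edgeR adjusted p = 0.0901, SE 0.294), and without Cre- MPTP replicate 1 it was -1.34 and passed (edgeR adjusted p = 0.00635, SE 0.266). Neu4, a sialidase that acts on polysialic acid, had 9.96, 15.3 and 16.4 CPM with Saline and 6.50, 8.56 and 12.5 CPM with MPTP. Its ranges overlapped, and its log2 fold change was -0.58 (edgeR adjusted p = 0.296, SE 0.243), or -0.39 without Cre- MPTP replicate 1 (edgeR adjusted p = 0.271).

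Among the OPC genes, Pdgfra had 45.5, 60.0 and 59.8 CPM in Cre- Saline libraries and 30.6, 75.8 and 75.8 CPM in Cre- MPTP libraries, so that replicate 1 was below and replicates 2 and 3 were above every Saline library. The log2 fold change of Pdgfra was 0.14 (SE 0.264, edgeR adjusted p = 0.814, 95% interval -0.43 to 0.72). Without Cre- MPTP replicate 1, which left 2 mice in that group, it rose by 0.46 (edgeR adjusted p = 0.0146, SE 0.106). Pdgfra was called in 3 of 22 alternative settings, and in 1 of the 13 fits with a single library left out. The fit without Cre- MPTP replicate 1 called 4 of the 10 members, against 9.38% of all genes: Gpr17, Enpp6 and Bmp4 as lower (4.25% of all genes) and Pdgfra as higher (5.14%). Committed precursor genes then had a median log2 fold change of -1.27 and OPC genes one of 0.17, against -0.01 over all genes. Both fits share every library but 1, so they are not independent.

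Cspg4, the gene of the NG2 proteoglycan, was the only one of the 6 OPC genes to lie below every Saline library in all 3 MPTP libraries, with 15.6, 20.2 and 24.5 CPM in Saline and 12.6, 14.5 and 14.2 CPM in MPTP libraries. The difference was smaller than that of Gpr17, at a log2 fold change of -0.54 (edgeR adjusted p = 0.186, SE 0.184), and -0.48 without Cre- MPTP replicate 1 (edgeR adjusted p = 0.108). Vcan, a chondroitin sulfate proteoglycan of the matrix, had 14.0, 22.1 and 21.8 CPM with Saline and 7.80, 30.3 and 24.7 CPM with MPTP. As for Pdgfra, replicate 1 was the lowest and replicates 2 and 3 were the highest of these 6 libraries. The log2 fold change of Vcan was 0.13 (edgeR adjusted p = 0.882), and 0.51 without replicate 1 (edgeR adjusted p = 0.0822).

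Tnr had 70.2, 134.8 and 165.5 CPM with Saline and 36.1, 167.5 and 138.9 CPM with MPTP. Ptprz1 had 242.8, 286.3 and 294.4 CPM with Saline and 107.7, 299.6 and 253.2 CPM with MPTP, and Sox6, a transcription factor that holds precursors back from differentiation, had 16.6, 19.9 and 26.1 CPM against 5.09, 17.2 and 21.1 CPM. For each of these genes MPTP replicates 2 and 3 lay within or near the Saline range and replicate 1 lay far below it. Log2 fold changes were -0.11 for Tnr, -0.32 for Ptprz1 and -0.51 for Sox6 (edgeR adjusted p = 0.92, 0.58 and 0.503). Without replicate 1 they were 0.32, 0.01 and -0.12, so the sign of Tnr and Ptprz1 turned, and the 95% interval of Ptprz1 narrowed from -0.90 to 0.27 down to -0.19 to 0.22.

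**Figure D2:**
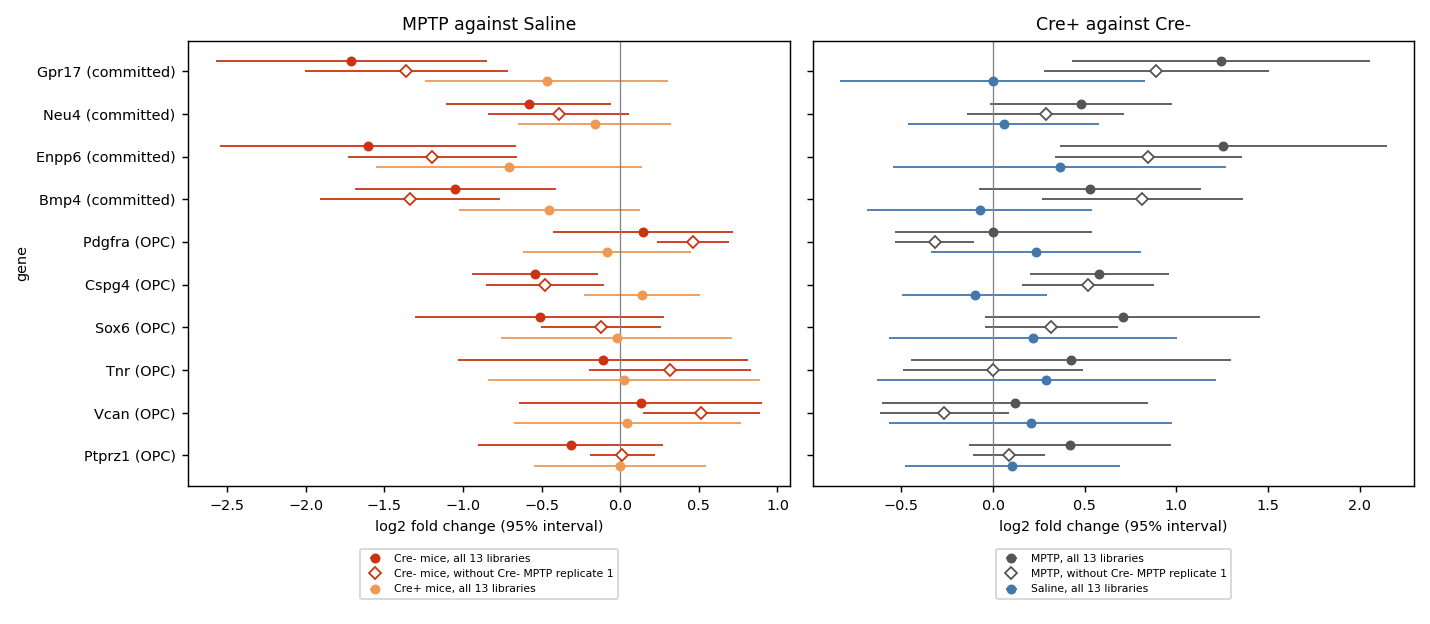
Log2 fold changes (horizontal axis) with 95% intervals of the 10 genes (vertical axis), for MPTP against Saline on the left and Cre+ against Cre- on the right; filled circles use all 13 libraries and open diamonds leave out Cre- MPTP replicate 1. In Cre- mice Gpr17, Enpp6 and Bmp4 sit between -1.71 and -1.05 and Pdgfra moves from 0.14 to 0.46 when the library is left out; the values in Cre+ mice lie between -0.71 and 0.14.

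In Cre+ mice the same comparison called 0 of the 10 members (edgeR), as it did 0% of all genes; at an unadjusted p under 0.05 there were 0 members and 3.47% of all genes. Enpp6 had 22.8, 23.7 and 26.3 CPM in Cre+ Saline libraries and 14.3, 18.9, 12.8 and 13.4 CPM in Cre+ MPTP libraries, without overlap. Its log2 fold change was -0.71 (edgeR adjusted p = 1.00, SE 0.389, 95% interval -1.55 to 0.14). DESeq2 on these 2 groups called Enpp6 lower (-0.71, DESeq2 adjusted p = 1.19e-04), as did limma voom (-0.77, limma adjusted p = 0.0148), where these tools called 1.73% and 1.52% of all genes, and DESeq2 over all 13 libraries did not (-0.71, DESeq2 adjusted p = 1.00). Without Cre- MPTP replicate 1, which enters this comparison only through the shared spread, the edgeR adjusted p of Enpp6 was 0.226. Bmp4 had 4.97, 4.07 and 4.76 CPM with Saline and 2.70, 3.97, 3.02 and 3.78 CPM with MPTP, also without overlap but with a gap of under 0.1 CPM, and a log2 fold change of -0.45 (SE 0.265). Those were the 2 of 10 members whose groups did not overlap, against 9.66% of all genes.

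Gpr17 had 36.7, 53.2 and 46.5 CPM in Cre+ Saline and 35.6, 38.7, 23.2 and 33.9 CPM in Cre+ MPTP libraries, with overlapping ranges and a log2 fold change of -0.47 (SE 0.357, 95% interval -1.24 to 0.31). The 4 committed precursor genes had a median of -0.46 and the 6 OPC genes one of 0.01. Among the OPC genes, Pdgfra had 63.7 to 65.7 CPM with Saline and 57.9 to 64.3 CPM with MPTP, a log2 fold change of -0.09 (95% interval -0.62 to 0.45), and Ptprz1 one of 0.00 (95% interval -0.55 to 0.54). Leaving out Cre+ MPTP replicate 4, the library with muscle genes, or either Cre+ Saline library with pituitary genes changed no member's call in this comparison.

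The design next asked whether MPTP-treated mice differed by genotype, using the same Cre- MPTP libraries as the first comparison. Here 0 of the 10 members passed (edgeR), where 1.54% of all genes did, and 3 had an unadjusted p under 0.05 (Gpr17, Enpp6 and Cspg4), as did 19% of all genes. The CPM of these 3 did not overlap, being higher in every Cre+ than in every Cre- MPTP library, while 11.3% of all genes did not overlap. Means of Gpr17 were 32.8 ± 6.75 CPM over the 4 Cre+ and 13.7 ± 7.12 CPM over the 3 Cre- mice (SD), and its log2 fold change was 1.24 (edgeR adjusted p = 0.15, SE 0.375). Enpp6 had 14.9 ± 2.75 and 6.03 ± 4.05 CPM, and 1.26 on the log2 scale (edgeR adjusted p = 0.176, SE 0.411). Cspg4 had 20.6 ± 2.49 and 13.8 ± 1.06 CPM, and 0.58 on the log2 scale (edgeR adjusted p = 0.148, SE 0.174).

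Without Cre- MPTP replicate 1 these values were 0.89 for Gpr17, 0.85 for Enpp6 and 0.52 for Cspg4 (edgeR adjusted p = 0.144, 0.0824 and 0.151), and Bmp4 moved from 0.53 to 0.81 (edgeR adjusted p = 0.132). That fit again called 0 members, and 3.18% of all genes. Leaving out Cre- MPTP replicate 2 instead put Gpr17 (1.56, edgeR adjusted p = 0.0437) and Enpp6 (1.71, edgeR adjusted p = 0.0399) past the threshold, in a fit that called 9.51% of all genes. Pdgfra had a log2 fold change of 0.00 with all libraries (95% interval -0.53 to 0.54) and -0.32 without Cre- MPTP replicate 1 (edgeR adjusted p = 0.136). The log2 fold changes of the other members were 0.71 for Sox6, 0.48 for Neu4, 0.42 each for Tnr and Ptprz1 and 0.12 for Vcan, with 95% intervals that included 0.

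Between the Saline-treated genotypes 0 of the 10 members were called, and 0% of all genes (edgeR; 176 genes, or 0.909%, at an unadjusted p under 0.05 and 0 members). Log2 fold changes ran from -0.10 for Cspg4 to 0.36 for Enpp6. Pdgfra was the 1 member whose groups did not overlap, with 63.7 to 65.7 CPM in Cre+ and 45.5 to 60.0 CPM in Cre- Saline libraries, against 11.6% of all genes. Its log2 fold change was 0.23 (SE 0.264, 95% interval -0.34 to 0.80).

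The interaction asks directly whether the response to MPTP differed between genotypes, and it passed for 0 of the 10 members, as for 0.0103% of all genes (edgeR); 2 members and 5.76% of all genes had an unadjusted p under 0.05. Its values were 1.24 for Gpr17 (SE 0.532, unadjusted p = 0.037, edgeR adjusted p = 0.795), 0.68 for Cspg4 (SE 0.251, unadjusted p = 0.0187, edgeR adjusted p = 0.683) and 0.89 for Enpp6 (SE 0.58, unadjusted p = 0.148). These were the only members but Bmp4 with values above 0.5, and Bmp4 had 0.60 (SE 0.396). Without Cre- MPTP replicate 1, again with 0 members called and 1.03% of all genes, Pdgfra had -0.55 (edgeR adjusted p = 0.0894, SE 0.138), Gpr17 0.89 and Bmp4 0.89 (edgeR adjusted p = 0.37 and 0.307). The difference between genotypes was thus not shown for any single member, and the intervals were wide: 0.09 to 2.40 for Gpr17 and -0.37 to 2.15 for Enpp6.

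Each gene was also divided by Pdgfra within a library. The ratio of Gpr17 to Pdgfra CPM was 0.609, 0.740 and 1.08 in Cre- Saline libraries and 0.188, 0.257 and 0.209 in Cre- MPTP libraries. It was 0.559, 0.820 and 0.729 in Cre+ Saline and 0.612, 0.601, 0.365 and 0.586 in Cre+ MPTP libraries. All 3 Cre- MPTP libraries, replicate 1 included, were below the other 10. For Enpp6 the ratio was 0.0532, 0.126 and 0.0906 in Cre- MPTP libraries, below all others, which had 0.202 to 0.413. Bmp4 behaved otherwise, because its ratio of 0.110 in Cre- MPTP replicate 1 was the highest of all 13 libraries while replicates 2 and 3 had the lowest, 0.0308 and 0.0196. Neu4 in replicate 1, at 0.213, lay within the range of the other groups. The ratios of 2 OPC genes were likewise lowest in the 3 Cre- MPTP libraries: that of Sox6 was 0.167, 0.226 and 0.278, against 0.319 to 0.454 in the other 10, and that of Ptprz1 was 3.53, 3.95 and 3.34, against 4.37 to 5.34. Low ratios to Pdgfra were therefore not limited to committed precursor genes. Pdgfra divided by Ptprz1 was itself highest in the 3 Cre- MPTP libraries, at 0.253 to 0.299 against 0.187 to 0.229. Divided by Ptprz1, Gpr17 (up to 0.0650) and Enpp6 (up to 0.0320) were again lowest there, the others having at least 0.0752 and 0.0415. Sox6 then overlapped, at 0.0473, 0.0572 and 0.0833 against 0.0685 to 0.0935. Bmp4, Neu4 and Cspg4 divided by Ptprz1 were highest in Cre- MPTP replicate 1. The ratios are a description and were not tested.

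**Figure D3:**
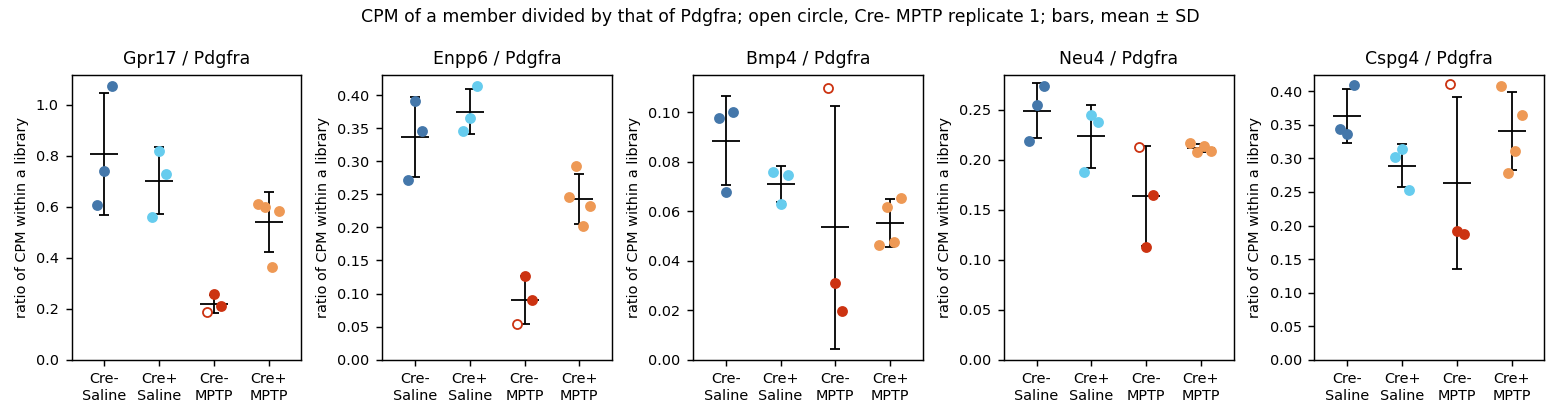
CPM of Gpr17, Enpp6, Bmp4, Neu4 and Cspg4 divided by the CPM of Pdgfra in the same library (vertical axis from 0), by group; the open circle is Cre- MPTP replicate 1 and bars are mean ± SD. For Gpr17 and Enpp6 all 3 Cre- MPTP libraries lie below the other 10 (up to 0.257 and 0.126), while for Bmp4 and Cspg4 the open circle is at the top (0.110 and 0.411).

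Other genes of the committed and newly formed stage were mostly not called, in a fit that called 3.18% of all genes with MPTP in Cre- mice. Of 19 tested, 1 fell with MPTP in Cre- mice: Ugt8a, the enzyme that makes the myelin lipid galactosylceramide, with 86.9, 124 and 115 CPM in Saline and 14.6, 43.9 and 31.3 CPM in MPTP libraries and -1.85 on the log2 scale (edgeR adjusted p = 0.00532, SE 0.311). Ugt8a was 1.54 higher on the log2 scale in Cre+ than in Cre- MPTP mice (edgeR adjusted p = 0.0261, SE 0.296), lost without any 1 of the 4 Cre+ MPTP libraries, and 1.22 without Cre- MPTP replicate 1 (edgeR adjusted p = 0.00295). Bcas1, a marker of newly formed oligodendrocytes, had -0.65 in Cre- mice (edgeR adjusted p = 0.116), and -0.45 without Cre- MPTP replicate 1 (edgeR adjusted p = 0.048). Of 18 other OPC genes 2 fell and 0 rose: Cacng4 (-0.56, edgeR adjusted p = 0.0382) and Rlbp1 (-0.95, edgeR adjusted p = 0.043). The call of Cacng4 was lost in 11 and that of Rlbp1 in 10 of the 13 fits with a single library left out, and that of Ugt8a with MPTP in none. Leaving out Cre- MPTP replicate 1, the committed and newly formed list had 2 genes lower and 1 higher, Ugt8a being at -1.53. The OPC list then had 3 lower and 1 higher, in a fit that called 9.38% of all genes. Median log2 fold changes with all libraries were 0.06 for the committed and newly formed list and -0.17 for the OPC list. In Cre+ mice 0 genes of either list were called with MPTP, as were 0% of all genes.

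Among 13 markers of mature oligodendrocytes tested with MPTP in Cre- mice, 4 fell and 1 rose, where 3.18% of all genes were called. Their median log2 fold change was -0.62. The log2 fold changes of Opalin, Mog, Cnp and Trf were -2.95, -1.72, -0.94 and -0.62 (edgeR adjusted p = 0.0045, 0.0291, 0.00829 and 0.0192), and that of Apod, a lipocalin, was 1.96 (edgeR adjusted p = 0.00132). Opalin, a membrane protein of myelinating cells, had 40.1, 55.4 and 57.2 CPM with Saline and 1.95, 12.4 and 4.89 CPM with MPTP. Mbp, the gene of myelin basic protein, had a log2 fold change of -0.43 (edgeR adjusted p = 0.22). When Cre- MPTP replicate 1 was left out, 7 markers fell and 1 rose, where 9.38% of all genes were called. Opalin then had -2.57 and Mog -1.32. With a single library left out the call of Mog was lost in 7 and that of Trf in 3 of 13 fits, and those of Opalin, Cnp and Apod in none. Summed CPM of the list was 13720 to 18850 in Cre- Saline and 10920 to 13770 in Cre- MPTP libraries, and 0 of its genes were at 0 in any library. Between MPTP-treated genotypes Opalin was higher in Cre+ mice (2.09, edgeR adjusted p = 0.0402) and Apod lower (-1.44, edgeR adjusted p = 0.0113), calls that were lost in 11 and 2 of those 13 fits. Pericyte genes, which bear on Cspg4, summed to 339 to 399 CPM with Saline and 222 to 287 CPM with MPTP in Cre- mice (1 of 10 called lower, 0 higher, median -0.67). Fibroblast genes, which bear on Pdgfra and Vcan, summed to 264 to 319 and 195 to 257 CPM (3 lower, 1 higher of 10, median -0.71). The 1 called higher was Dcn, with 24.8, 26.8 and 23.5 CPM in Saline and 59.0, 70.9 and 85.1 CPM in MPTP libraries. Its call was lost in 4 of 13 fits with a single library left out. Astrocyte genes, which bear on Ptprz1, summed to 3955 to 4577 and 5482 to 5996 CPM (2 higher, 1 lower of 10, median -0.05). Within these sums Gfap had 292, 363 and 342 CPM in Saline and 3171, 1242 and 1623 CPM in MPTP libraries. Of the 10 log2 fold changes 5 were above 0 and 5 below. None of these lists had a gene at 0 in any library, and their part in the results was not tested.

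With all libraries 0 of 14 lineage transcription factors were called with MPTP in Cre- mice, against 3.18% of all genes, with a median of 0.14. Olig1, a basic helix-loop-helix factor of the whole lineage, had 252, 256 and 340 CPM with Saline and 832, 127 and 134 CPM with MPTP, the 832 being replicate 1. Sox10, which drives myelin genes, had 90.2, 109 and 118 CPM with Saline and 146, 60.7 and 49.9 CPM with MPTP, and Nkx2-2, a regulator of the onset of differentiation, 14.3, 15.4 and 17.2 CPM and 44.7, 7.92 and 7.33 CPM. With all libraries the log2 fold changes of Olig1, Sox10 and Nkx2-2 were 0.36, -0.31 and 0.32. In each, replicate 1 was the highest of 13 libraries and replicates 2 and 3 the lowest. Without it 6 of 14 fell and 0 rose, where 4.25% of all genes fell and 5.14% rose. Among the 6 were Olig1, Sox10 and Nkx2-2, at -1.11, -0.93 and -1.03 (edgeR adjusted p = 2.83e-04, 4.74e-04 and 5.19e-04). In that fit all 3 were higher in Cre+ than in Cre- MPTP mice, by 0.63, 0.58 and 0.77 (edgeR adjusted p = 0.0198, 0.0174 and 0.00706), against -0.85, -0.04 and -0.59 with all libraries. Olig2 had 0.47 with all libraries and -0.44 without replicate 1 (edgeR adjusted p = 0.578 and 0.075), and Sox5, the partner of Sox6, -0.03 and 0.08. The sign for Olig1, Nkx2-2 and Olig2 in Cre- mice therefore turned with 1 library, and that of Sox10 was negative in both fits.

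Ligands and receptors around Pdgfra were mixed. Of 11 genes for platelet-derived and fibroblast growth factors and their receptors, 1 fell and 1 rose with MPTP in Cre- mice. That fit called 3.18% of all genes. Fgfr2, a receptor of oligodendrocytes and astrocytes, had 87.8, 112 and 97.6 CPM with Saline and 50.4, 50.5 and 45.5 CPM with MPTP (log2 fold change -1.02, SE 0.125, edgeR adjusted p = 0.00115), and Fgf2, a mitogen of OPCs, rose by 1.40 (edgeR adjusted p = 0.0221, SE 0.299). Both kept their call without replicate 1, with -1.04 and 1.47, but that of Fgf2 was lost without Cre- MPTP replicate 2 or any 1 of the 3 Cre- Saline libraries. Fgfr2 was also higher in Cre+ than in Cre- MPTP mice, with 77.7 to 91.3 against 45.5 to 50.5 CPM (log2 fold change 0.77, SE 0.118, edgeR adjusted p = 0.0113), a call kept in all 13 fits with a single library left out. Its interaction was 0.62 (edgeR adjusted p = 0.308), and 0.64 without replicate 1 (edgeR adjusted p = 0.0376). Pdgfa, the ligand of the receptor, had 57.4, 45.7 and 44.9 CPM with Saline and 219, 45.4 and 39.1 CPM with MPTP, high in replicate 1 alone, and its log2 fold change went from 1.03 to -0.22 without that library (edgeR adjusted p = 0.346 and 0.261). Pdgfrb, the pericyte receptor, had -0.20 and 0.00.

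Around Bmp4, 0 of 20 genes of the BMP pathway were called with MPTP in Cre- mice, with a median of 0.26. Without replicate 1 there were 3 lower (Bmp6, Nog and Smad7) and 1 higher (Smad1), with a median of -0.05. The fit with all libraries called 3.18% of all genes and the fit without replicate 1 called 9.38%. Among 13 lecticans, tenascins and partners of PTPRZ1, 2 fell and 0 rose: Ptn, which encodes the PTPRZ1 ligand pleiotrophin, by 1.24 (edgeR adjusted p = 0.00185, SE 0.167), and Ncan, the lectican neurocan, by 0.69 (edgeR adjusted p = 0.0244, SE 0.15). Ptn was also higher in Cre+ than in Cre- MPTP mice (0.79, SE 0.157, edgeR adjusted p = 0.03), a call lost in 9 of 13 fits with a single library left out, while the call of Ptn with MPTP was lost in none and those of Ncan and Enpp1 needed each of Cre- Saline replicates 2 and 3 and Cre- MPTP replicate 3. Bcan, the lectican brevican, had -0.01 with all libraries and fell by 0.67 without replicate 1 (edgeR adjusted p = 0.99 and 8.93e-04), and Tnc, tenascin-C, had -0.38 and -0.19 (edgeR adjusted p = 0.503 and 0.685). Of 8 sialidases and relatives of ENPP6, 1 fell (Enpp1, by 1.32, edgeR adjusted p = 0.0236). Cell cycle genes gave 0 calls among 10 tested, with a median of 0.08. With replicate 1 left out there were 4 lower and 2 higher among the lecticans and partners, 2 lower among the sialidases and relatives and 1 lower among the cell cycle genes. In Cre+ mice these 4 lists had 0 calls with MPTP, in a fit that called 0% of all genes.

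**Figure D4:**
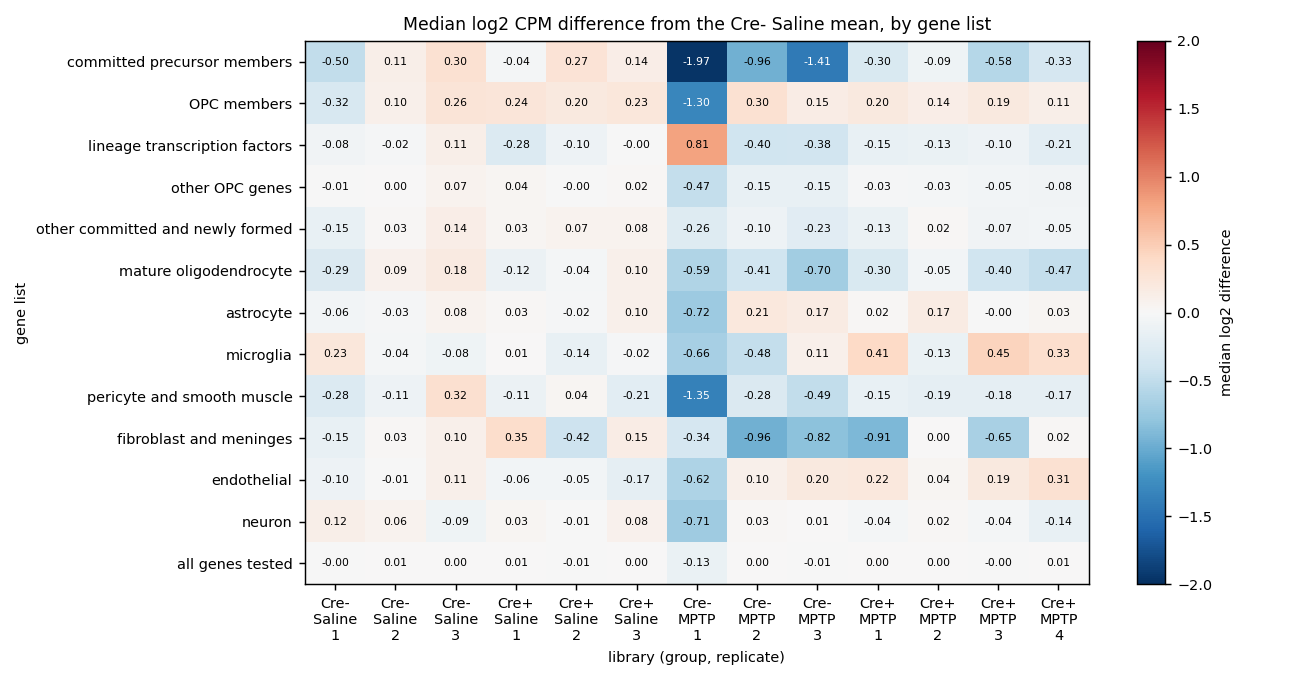
Median log2 CPM difference from the Cre- Saline mean for each gene list (rows) in each library (columns), on a scale from -2 to 2. In the 3 Cre- MPTP libraries the committed precursor members are at -1.97, -0.96 and -1.41 and the OPC members at -1.30, 0.30 and 0.15, while the lineage transcription factors go from 0.81 in replicate 1 to -0.40 and -0.38.

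Correlations among the members are a description over 13 libraries, which differ in depth and include replicate 1. Pairs of OPC genes had a median r of log2 CPM of 0.861 (15 pairs), pairs of committed genes 0.711 (6 pairs), and pairs across stages 0.685 (24 pairs). Without replicate 1 the medians were 0.516, 0.780 and 0.216 over 12 libraries. Among 16036 genes with a mean of at least 1 CPM, those most like the mean of the committed genes were Serinc5 (r = 0.978), Arsg (0.977), Ednrb (0.975), Tmem63a (0.964) and Ugt8a (0.963). Without replicate 1 Serinc5 and Arsg were again among the first 5, with Acsl6, Spg20 and Gna12 (r of 0.961 to 0.971). For the OPC genes they were Abat, Fryl, Ryr3, Dip2c and Kidins220 (r of 0.990 to 0.994), and only Fryl remained among the first 5 without replicate 1, beside Fat1, Tln2, Macf1 and Stard9.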

How the data were processed

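RNA from midbrain tissue was sequenced as total RNA libraries (paired reads) of 13 mice, 1 library per mouse. Trimming by the authors used Trimmomatic 0.36, mapping used STAR 2.5.2b with the GRCm38 genome, and featureCounts of Subread 1.5.2 counted uniquely assigned reads by gene. The deposited values are these raw counts, without normalization, for 49315 genes (11489150 to 29397278 per library). Whether the counting used strand is not given in the sources used here. Symbols were matched for 48970 genes and positions come from GENCODE M21.

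Counts were tested with edgeR 4.0.16 in R 4.3.3: TMM normalization, a minimum of 10 counts in 3 or more libraries (19360 genes passed), 1 term per group over all 13 libraries, the quasi-likelihood test and Benjamini-Hochberg adjustment over all genes, called under 0.05. The SE of a log2 fold change is its size divided by the square root of F; CPM use TMM-scaled library sizes. Alternatives were DESeq2 1.42.0 (all libraries or 2 groups), limma 3.58.1 voom with quality weights, edgeR on 2 groups, other filters, DESeq2 size factors, a replicate block and each library left out. The code was tested on simulated data in which no library was made divergent. There edgeR recovered 23 of 67 genes changed 2-fold in Cre- MPTP libraries, 57 of 67 changed 4-fold and 62 of 66 changed 8-fold. It made 8 false calls in that comparison. P-values weigh a difference between groups against the spread between mice, which the main edgeR fit estimated over all 13 libraries together.

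The 10 members, the lists of lineage, pathway and cell type marker genes and the alternatives were chosen with earlier results of these data known. All members are named; other lineage and pathway list genes were chosen for naming by being called or by being a close relative or partner of a member, and not all are printed.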

Additional observations from a re-analysis of the deposited data

How the results depend on the processing

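The number of members called with MPTP in Cre- mice, 1 by edgeR over all libraries, was 0 by edgeR on the 2 groups, 2 with no filter on low counts, 3 by DESeq2 over all 13 libraries, 5 by limma voom, 4 without both Cre- MPTP replicate 1 and Cre+ MPTP replicate 4, and 0 to 4 with 1 library left out; these called 0.6%, 1.59%, 5.87%, 13.6%, 10% and 1.61 to 9.38% of all genes, against 3.18%. In Cre+ mice it was 1 (Enpp6) in place of 0 by DESeq2 on the 2 groups and by limma voom (1.73% and 1.52% of all genes). For Cre+ against Cre- mice given MPTP it was 2 by DESeq2 over all 13 libraries (4.31% of all genes), 4 by limma voom (6.32%) and 0 to 2 with 1 library left out (0.212 to 9.51%, against 1.54%), and for the interaction 2 by limma voom (Pdgfra and Cspg4; 3.56%, against 0.0103%), each in place of 0. Between genotypes given Saline it was 0 in every setting run. Gpr17, Enpp6, Bmp4, Neu4, Cspg4 and Sox6 kept a negative log2 fold change with MPTP in Cre- mice in all settings. Signs turned in 26 of 430 member values under other settings and in 46 of 650 with 1 library left out; the cause was not tested. DESeq2 on the 2 groups gave 0.0003 for Ptprz1 (MPTP against Saline in Cre+ mice), -0.0146 for Pdgfra (Cre+ against Cre- mice given MPTP) and 0.0029 for Gpr17 (Cre+ against Cre- mice given Saline). DESeq2 over all 13 libraries gave -0.0149 for Pdgfra (Cre+ against Cre- mice given MPTP). DESeq2 size factors gave -0.0142 for Pdgfra (Cre+ against Cre- mice given MPTP). A filter of 1 CPM in 3 libraries gave -0.0011 for Pdgfra (Cre+ against Cre- mice given MPTP). edgeR on the 2 groups gave -0.0053 for Pdgfra (Cre+ against Cre- mice given MPTP). Leaving out both Cre- MPTP replicate 1 and Cre+ MPTP replicate 4 gave 0.32 for Tnr and 0.0236 for Ptprz1 (MPTP against Saline in Cre- mice), 0.0154 for Sox6 and 0.0193 for Ptprz1 (MPTP against Saline in Cre+ mice), -0.29 for Pdgfra and -0.30 for Vcan (Cre+ against Cre- mice given MPTP) and -0.24 for Tnr and -0.0043 for Ptprz1 (the interaction). limma voom gave 0.16 for Tnr (MPTP against Saline in Cre- mice), -0.0075 for Vcan and 0.0201 for Ptprz1 (MPTP against Saline in Cre+ mice), -0.32 for Pdgfra and -0.26 for Vcan (Cre+ against Cre- mice given MPTP), -0.0475 for Neu4 and 0.0738 for Bmp4 (Cre+ against Cre- mice given Saline) and -0.0936 for Tnr (the interaction). The replicate block gave -0.011 for Vcan and 0.0131 for Ptprz1 (MPTP against Saline in Cre+ mice) and 0.0324 for Gpr17 (Cre+ against Cre- mice given Saline). With 1 library left out at a time, log2 fold changes whose sign turned ranged, for MPTP against Saline in Cre- mice, from -0.0442 to 0.46 for Pdgfra, -0.48 to 0.32 for Tnr, -0.21 to 0.51 for Vcan and -0.60 to 0.0137 for Ptprz1. For MPTP against Saline in Cre+ mice, from -0.12 to 0.0425 for Sox6, -0.0311 to 0.0778 for Tnr, -0.0189 to 0.10 for Vcan and -0.0311 to 0.0148 for Ptprz1. For Cre+ against Cre- mice given MPTP, from -0.32 to 0.20 for Pdgfra, -0.0002 to 0.79 for Tnr and -0.27 to 0.46 for Vcan. For Cre+ against Cre- mice given Saline, from -0.25 to 0.0731 for Cspg4, -0.26 to 0.34 for Gpr17, -0.13 to 0.20 for Neu4 and -0.18 to 0.12 for Bmp4. For the interaction, from -0.29 to 0.50 for Tnr, -0.47 to 0.25 for Vcan and -0.017 to 0.59 for Ptprz1. Same-numbered mice showed no clear shared deviation (r of -0.18 to 0.18, over 0.1 in 3 of 18 pairs, against 8 of 45 pairs with other numbers). The numbers were therefore treated as names, and a shared litter or batch was not tested. The replicate block changed no member's call (1 with MPTP in Cre- mice). Over all genes it moved calls from 616 to 428 in that comparison and from 299 to 0 between MPTP-treated genotypes. Groups of 3 or 4 mice and 15 to 60 counts of Enpp6, Bmp4, Gpr17 and Neu4 in Cre- MPTP replicate 1 limit the precision.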
